A study of Mus musculus with 9 samples.

Results

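The genes of 6 nuclear hormone receptors, Esr1, Pgr, Nr3c1, Nr3c2, Thra and Thrb, were followed in the mediobasal hypothalamus of mice injected with AAV-Cre or AAV-GFP. They were chosen by symbol, through the Ensembl mouse gene identifiers of the deposited table, and make up 6 of its 13588 entries. All 6 had an entry and all 6 passed the filter on low values. Esr1 encodes oestrogen receptor alpha, Pgr the progesterone receptor, Nr3c1 the glucocorticoid receptor, Nr3c2 the mineralocorticoid receptor, Thra thyroid hormone receptor alpha and Thrb thyroid hormone receptor beta.

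These receptors are transcription factors that bind a hormone and then act on DNA. Steroid receptors are held by chaperones until their ligand binds, after which they pair on palindromic DNA elements, whereas thyroid hormone receptors sit on DNA with a retinoid X receptor and exchange corepressors for coactivators when hormone binds. In the hypothalamus, neurons of the ventromedial and arcuate nuclei with oestrogen receptor alpha take part in the control of energy balance and reproduction, Pgr is a classical gene induced by oestrogen, corticosterone acts through both Nr3c1 and Nr3c2, and thyroid hormone feeds back on the neurons that make thyrotropin-releasing hormone.

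The study asked whether deleting the Snord116 snoRNA cluster in the adult mediobasal hypothalamus alters feeding, body weight and hypothalamic expression. All animals were C57/BL6 males of the genotype Snord116tm1Uta/J, so that the AAV-GFP controls carried the same floxed allele as the AAV-Cre mice. They were injected at 10 to 12 weeks of age, and RNA of single mice was taken 10 weeks later from regions cut by laser according to Cre staining of adjacent sections, or from matching regions of controls. AAV-GFP was given to 3 mice and AAV-Cre to 6, of which 3 are labelled obese and 3 nonobese. Cre was driven by the CAG promoter and GFP by the CMV promoter, so the vectors of test and control mice differed in more than the gene they carried. The study also lists a higher titre for the Cre vector than for the GFP vector. The part of these vector differences in the values was not tested. Neither promoter selects a cell type.

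The sample titles and the weight labels name the AAV-Cre subsets in opposite ways, and the subsets are called here by their weight label. Values are the deposited signal, which is the reads of a gene relative to a library size scaled by edgeR and multiplied as in CPM, and a single library stands for each mouse. Libraries held between 3929672 and 5766994 reads, and 3 reads, taken as the limit of detection, corresponded to a signal between 0.525 and 0.786, which covers counting error only. Of the 17 Snord116 genes in the annotation, 0 had an entry. The transcript of Cre had a signal between 235 and 8557 in mice labelled obese and between 4644 and 7064 in mice labelled nonobese. In controls it was from 0 to 0.957. The transcript of GFP had a signal between 62.7 and 79.0 in controls and 0 in AAV-Cre mice. Replicates 1 and 3 labelled obese, called the immune-rich libraries here, stood apart by genes of immune cells. The summed signal of 7 markers of infiltrating immune cells (of 8 chosen) was 3799 and 6096 in those mice, 78.5 in replicate 2 labelled obese, from 33.9 to 41.2 in mice labelled nonobese and from 6.98 to 11.1 in controls. Among markers of the ventromedial nucleus, Nr5a1 was at 0 reads in AAV-GFP replicate 3, replicates 1 and 3 labelled obese and replicate 3 labelled nonobese, and the summed signal of 4 such markers ranged from 26.3 to 207 over the libraries. Agrp, a marker of the arcuate nucleus, was at 0 in both immune-rich libraries. The summed signal of 7 arcuate markers (of 8 chosen) was 291 and 239 in these libraries, within the 163 to 421 of controls. No pituitary marker (0 of 4) had an entry.

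Promoter sequences from RefSeq (build GRCm38.p6, 250 bases before to 50 after a start site) were found for 4 of the 6 receptor genes, and not for Nr3c1 and Thra. Sequences of 5 windows are shown. That of Pgr is shown because Pgr had the lowest p of the receptors, those of Thrb because its start sites give different receptor forms that share an entry, that of Trh because it is a thyroid hormone responsive gene that passed the test in a comparison described below, and that of Sgk1, a kinase induced by glucocorticoids, as a window with a complete element. Capitals mark the hexamers AGAACA, the core of the glucocorticoid receptor element, and AGGTCA, the core of the oestrogen and thyroid hormone receptor elements, on either strand, so that TGTTCT and TGACCT are the same hexamers read on the other strand.
Pgr, chr9:8899583-8899882, plus strand: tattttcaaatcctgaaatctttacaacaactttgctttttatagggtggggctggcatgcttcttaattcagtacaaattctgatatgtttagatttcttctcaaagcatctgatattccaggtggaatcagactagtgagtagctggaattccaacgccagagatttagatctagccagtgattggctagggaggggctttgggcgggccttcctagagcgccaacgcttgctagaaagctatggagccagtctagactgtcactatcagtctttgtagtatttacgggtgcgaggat
Thrb start site 1, chr14:17660710-17661009, plus strand: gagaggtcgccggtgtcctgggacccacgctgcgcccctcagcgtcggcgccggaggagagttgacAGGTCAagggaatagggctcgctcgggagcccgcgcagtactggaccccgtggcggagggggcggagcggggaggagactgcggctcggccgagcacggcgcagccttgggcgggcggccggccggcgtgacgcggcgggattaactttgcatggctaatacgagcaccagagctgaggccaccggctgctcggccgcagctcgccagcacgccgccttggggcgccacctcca
Thrb start site 2, chr14:17981394-17981693, plus strand: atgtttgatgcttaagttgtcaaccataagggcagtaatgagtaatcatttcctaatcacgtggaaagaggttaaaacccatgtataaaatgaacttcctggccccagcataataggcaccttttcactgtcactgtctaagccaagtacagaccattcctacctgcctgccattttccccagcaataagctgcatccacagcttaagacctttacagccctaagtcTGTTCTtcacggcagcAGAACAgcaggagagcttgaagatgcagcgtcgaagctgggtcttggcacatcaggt
Trh, chr6:92244601-92244900, minus strand: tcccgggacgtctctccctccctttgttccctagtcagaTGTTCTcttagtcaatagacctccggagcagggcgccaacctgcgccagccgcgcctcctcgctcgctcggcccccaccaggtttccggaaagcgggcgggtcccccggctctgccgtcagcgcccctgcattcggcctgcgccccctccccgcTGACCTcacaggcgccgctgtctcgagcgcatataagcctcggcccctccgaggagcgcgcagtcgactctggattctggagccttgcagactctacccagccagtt
Sgk1 start site 5 of 6, chr10:21993640-21993939, plus strand: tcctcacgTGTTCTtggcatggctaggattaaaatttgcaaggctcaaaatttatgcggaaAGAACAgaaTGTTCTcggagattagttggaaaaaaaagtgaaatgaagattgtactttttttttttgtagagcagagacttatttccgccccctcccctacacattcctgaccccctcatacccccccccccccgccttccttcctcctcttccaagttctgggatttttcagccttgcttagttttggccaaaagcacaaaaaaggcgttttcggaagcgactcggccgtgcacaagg
The window of Pgr held neither hexamer. Thrb start site 1 held an AGGTCA whose first base lies 184 bases before the start site, and Thrb start site 2 a TGTTCT and an AGAACA 23 and 7 bases before it. The Trh window held a TGTTCT 211 bases and a TGACCT 57 bases before the start site. In the Sgk1 window, AGAACA 189 bases before the start site is followed after 3 bases by TGTTCT, which makes a palindrome of the kind steroid receptors bind, and a further TGTTCT lies 242 bases before it. This palindrome (AGAACA, 3 bases of any kind, TGTTCT) was in 0.00913% of the 32851 promoter windows in the reference, and each such match also counts as a match to the hexamer AGAACA. The palindrome of the oestrogen receptor (GGTCA, 3 bases, TGACC), which can overlap AGGTCA, was in 0.0700% of the windows, and the direct repeat of the thyroid hormone receptors (AGGTCA, 4 bases, AGGTCA) in 0.0152%. AGAACA alone was in 19.0% of the windows and AGGTCA alone in 16.3%, both strands searched. A match describes the letters of a window and no binding was measured.

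The receptor genes differed widely in level. Signal per kilobase of exon, which allows comparison between genes, had a median over the 9 libraries of 87.6 for Thra, 13.2 for Nr3c1, 6.85 for Thrb, 4.73 for Nr3c2, 3.35 for Pgr and 2.35 for Esr1. Thra ranged from 65.8 to 108 per kilobase and Nr3c1 from 11.1 to 21.4, so these neighbours did not overlap. Nr3c1 was above Thrb and Thrb above Nr3c2 within each of the 9 libraries, although their ranges over mice overlapped. The order below that was not fixed. Nr3c2 was above Pgr in 5 of 9 libraries and Pgr above Esr1 in 7 of 9. With the length of the longest transcript in place of all exons, Esr1 took rank 5 and Pgr rank 6, since the exons of Esr1 sum to 13.7 kb and its longest transcript to 6.34 kb. The thyroid hormone receptor alpha gene thus had the highest level, and the glucocorticoid receptor gene the next, in each of the 9 libraries.

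**Figure D1:**
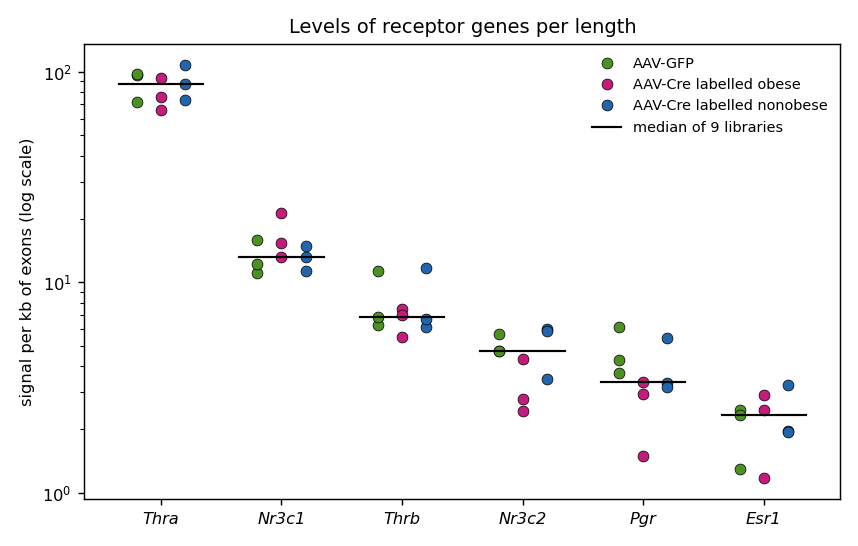
Signal per kilobase of exon (log scale) of the 6 receptor genes, with a point for each of the 9 libraries coloured by group and a line at the median. Thra (65.8 to 108) lies above all other points, and Pgr (up to 6.12) and Esr1 (1.17 to 3.25) are interleaved.

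The receptor genes differed in how evenly mice expressed them. The coefficient of variation of the signal over 9 libraries was 16.9% for Thra, 22.1% for Nr3c1, 29.5% for Thrb, 29.6% for Nr3c2, 31.2% for Esr1 and 36.6% for Pgr. Reads alone would give between 2.40% for Thra and 9.12% for Nr3c2. The lowest read numbers were 57 for Pgr, 68 for Nr3c2 and 69 for Esr1, whereas Thra had from 1290 to 2852 reads.

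None of the receptor genes passed an FDR of 0.1 in any of 4 comparisons made with limma (0 of 6 in each). The background over all 13506 entries tested was 0.555% for mice labelled obese against AAV-GFP, 0.0148% for mice labelled nonobese against AAV-GFP, 0.0222% for the 6 AAV-Cre mice pooled and 0.948% for mice labelled nonobese against mice labelled obese. The lowest FDR of the receptors was 0.449, 0.999, 0.999 and 0.523 in the same order. At an unadjusted p under 0.05, 1 of 6 passed in mice labelled obese against AAV-GFP (Pgr, background 9.88%) and 0 of 6 in the others (backgrounds 2.27%, 3.14% and 11.4%). DESeq2 and edgeR on the recovered reads also called 0 of 6 in every comparison. In bulk tissue, fewer cells that express a receptor and less of its RNA per cell cannot be told apart. Comparisons of each subset with AAV-GFP share the same 3 control mice.

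**Figure D2:**
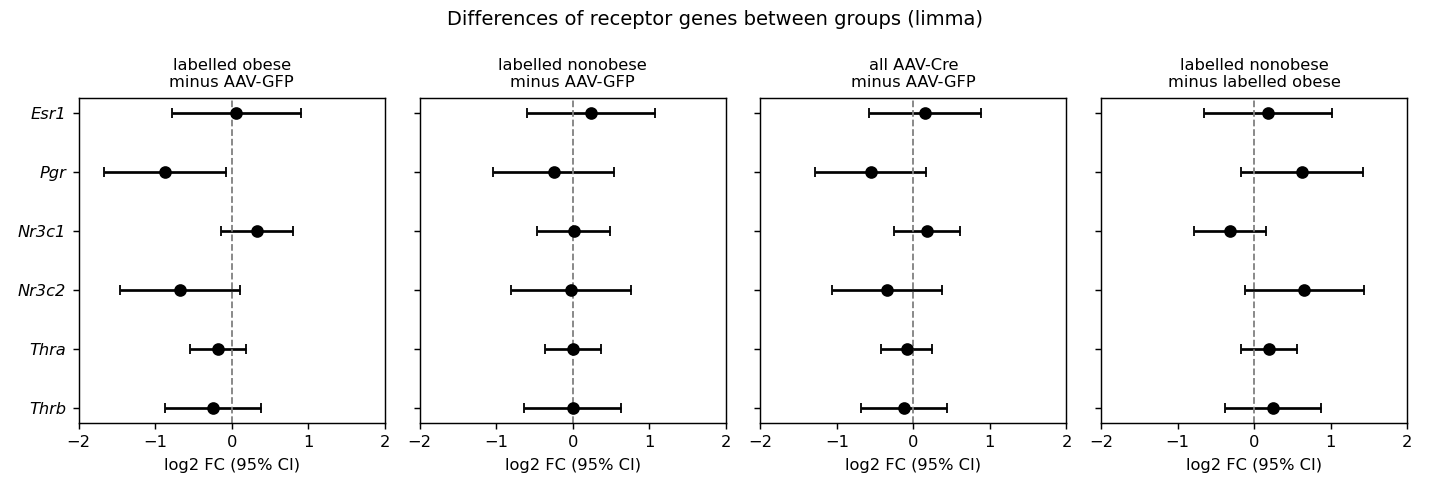
Log2 fold change with its 95% confidence interval (limma, log2(signal + 1) scale) for the 6 receptor genes in 4 comparisons, each panel headed by the groups subtracted. The interval for Pgr in mice labelled obese, −1.67 to −0.08, is the only one of 24 that does not include 0.

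Of the sex steroid receptors, Pgr was the receptor gene with the lowest p. In replicates 1, 2 and 3, the order kept throughout, the signal of Pgr was 36.7, 52.3 and 31.8 in AAV-GFP mice, 12.8, 28.6 and 25.3 in mice labelled obese, and 46.7, 28.3 and 27.1 in mice labelled nonobese. All 3 mice labelled obese lay below all 3 controls, the lowest being replicate 1, whereas the mice labelled nonobese overlapped both groups. Means were 40.3 ± 10.7 for controls and 22.2 ± 8.32 for mice labelled obese (SD, n = 3 each). With Nr3c2, described below, this made 2 of 6 receptor genes that did not overlap between mice labelled obese and AAV-GFP, against 14.5% of all entries tested and 7.27% for those lower in mice labelled obese. Pgr thus had a log2 fold change (log2 FC, on the log2(signal + 1) scale) of −0.87 (standard error, SE, 0.39, 95% interval −1.67 to −0.08, limma unadjusted p = 0.0330, FDR = 0.449), and an exact permutation test gave p = 0.1 (2-sided, n = 3 against 3), the smallest p of this design. In mice labelled nonobese the log2 FC of Pgr was −0.25 (SE 0.39, 95% interval −1.04 to 0.55). Pgr (ENSMUSG00000031870) lies on chromosome 9 of GRCm38 from 8899833 to 8968611, plus strand.

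Esr1 showed no such separation. Its signal was 33.7, 32.2 and 17.7 in AAV-GFP mice, 34.0, 39.9 and 16.0 in mice labelled obese, and 26.9, 26.7 and 44.4 in mice labelled nonobese. The groups overlapped throughout, and the lowest and highest values, 16.0 and 44.4, both came from AAV-Cre mice. For Esr1 the log2 FC was 0.06 (SE 0.41, 95% interval −0.78 to 0.90) in mice labelled obese, and 0.24 (SE 0.41, 95% interval −0.60 to 1.08) in mice labelled nonobese. The value in mice labelled obese turned its sign when libraries were centred on their medians, and it ranged from −0.23 without AAV-GFP replicate 3 to 0.45 without replicate 3 labelled obese. Increases of up to 0.90 and 1.08 on this scale lie within these intervals, so changes of that size could not be told from none with 3 mice per group. In the 4 libraries with Nr5a1 at 0, Esr1 was 17.7, 34.0, 16.0 and 44.4, which takes in the lowest and the highest value of all 9 mice. The ratio of Pgr to Esr1 signal, chosen after the values were seen, was 1.09, 1.62 and 1.80 in AAV-GFP mice, 0.377, 0.716 and 1.58 in mice labelled obese, and 1.73, 1.06 and 0.611 in mice labelled nonobese. Replicates 1 and 2 labelled obese lay below all controls in this ratio and replicate 3 among them, and the mean log2 ratio differed from that of AAV-GFP mice by −0.97 (exact permutation test, 2-sided p = 0.2, adjusted p = 0.6 over 12 ratio tests, n = 3 against 3). Esr1 (ENSMUSG00000019768) lies on chromosome 10 from 4611593 to 5005614, plus strand.

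**Figure D3:**
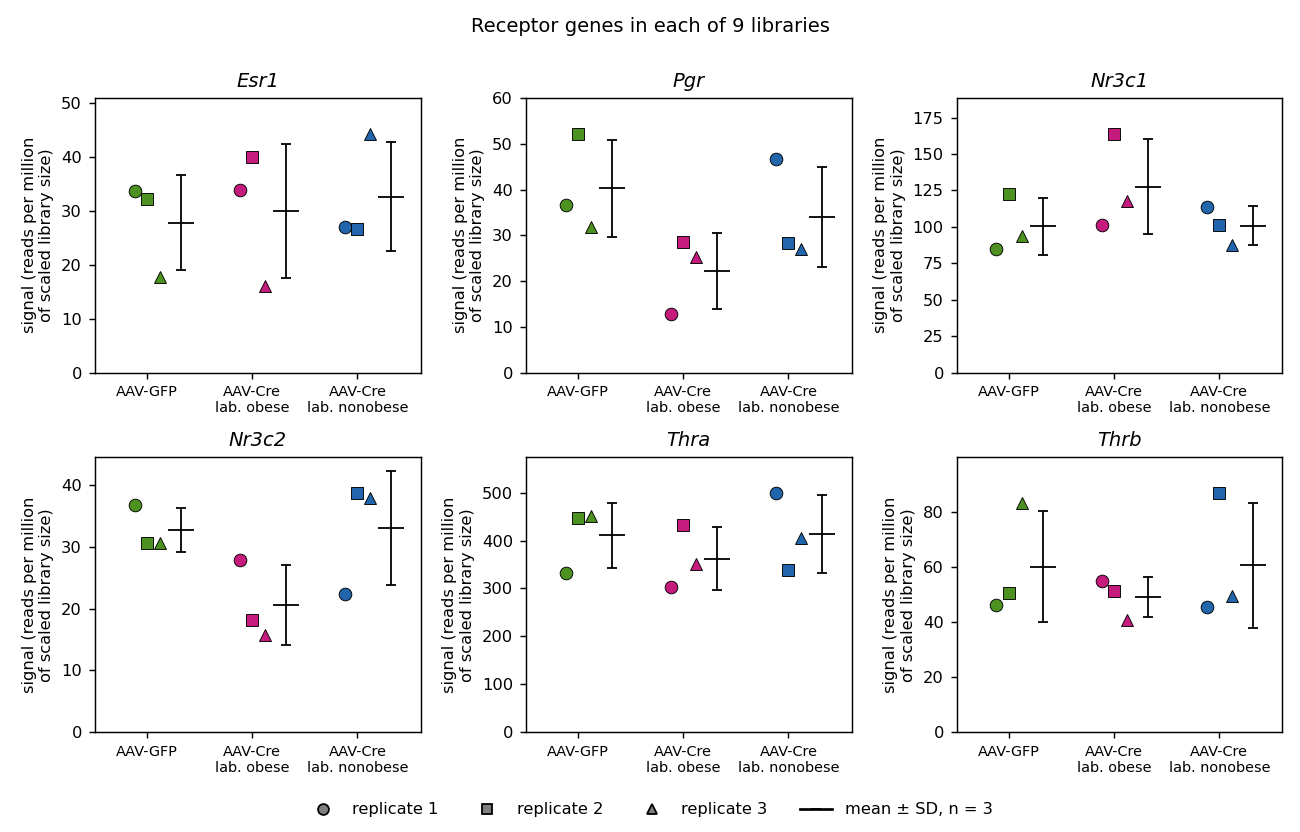
Signal of the 6 receptor genes in each of the 9 libraries (points, shape by replicate number, which was not used to pair mice in the main tests), with mean ± SD of 3 mice beside each group. Pgr and Nr3c2 are lower in all 3 mice labelled obese than in all 3 AAV-GFP mice, and the groups overlap for the other receptor genes.

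The corticosteroid receptors differed in direction in mice labelled obese, without passing the test. The signal of Nr3c2 was 36.9, 30.6 and 30.7 in AAV-GFP mice, 27.9, 18.2 and 15.8 in mice labelled obese, and 22.4, 38.8 and 38.0 in mice labelled nonobese. Means were 32.7 ± 3.60 for controls, 20.6 ± 6.42 for mice labelled obese and 33.0 ± 9.23 for mice labelled nonobese (SD, n = 3 each). Each mouse labelled obese lay below each control, and replicate 1 labelled nonobese lay among the obese values while the other nonobese mice exceeded all controls. The log2 FC of Nr3c2 in mice labelled obese was −0.68 (SE 0.38, 95% interval −1.46 to 0.10, limma unadjusted p = 0.0861, FDR = 0.577), with an exact permutation p of 0.1 (2-sided, n = 3 against 3). In mice labelled nonobese it was −0.02 (SE 0.38, 95% interval −0.80 to 0.76). Nr3c2 (ENSMUSG00000031618, chromosome 8 from 76899442 to 77245012, plus strand) shares 247 exonic bases with the long noncoding RNA gene Gm10649 on the opposite strand. Whether counting used the strand is not given in the sources used here.

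The signal of Nr3c1 was 85.0, 123 and 94.0 in AAV-GFP mice, 101, 164 and 118 in mice labelled obese, and 114, 102 and 87.3 in mice labelled nonobese. Replicate 2 labelled obese stood above all others, and the groups overlapped. Nr3c1 had a log2 FC of 0.33 (SE 0.23, 95% interval −0.14 to 0.80) in mice labelled obese and 0.01 (SE 0.23, 95% interval −0.46 to 0.49) in mice labelled nonobese. The value in mice labelled obese was 0.13 without replicate 2 labelled obese and 0.22 without AAV-GFP replicate 1. Nr3c1 (ENSMUSG00000024431) lies on chromosome 18 from 39410545 to 39519421, minus strand. The ratio of Nr3c2 to Nr3c1 signal, chosen after the values were seen, was 0.434, 0.250 and 0.326 in AAV-GFP mice, 0.276, 0.111 and 0.134 in mice labelled obese, and 0.197, 0.381 and 0.435 in mice labelled nonobese. The obese and control values of this ratio overlapped, and their mean log2 values differed by −1.04 (exact permutation test, 2-sided p = 0.2, adjusted p = 0.6 over 12 ratio tests, n = 3 against 3).

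Thra, the most abundant of the receptors, was also the most even. Its signal was 333, 448 and 452 in AAV-GFP mice, 304, 433 and 350 in mice labelled obese, and 499, 338 and 404 in mice labelled nonobese. All groups overlapped, and Thra had a log2 FC of −0.18 (SE 0.18, 95% interval −0.55 to 0.18) in mice labelled obese and 0.01 (SE 0.18, 95% interval −0.36 to 0.37) in mice labelled nonobese. Thra (ENSMUSG00000058756, chromosome 11 from 98740638 to 98769006, plus strand) shares 263 exonic bases with Nr1d1 on the opposite strand. The forms of Thra that bind hormone and the form that does not are summed in its entry.

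Thrb had a signal of 46.4, 50.7 and 83.5 in AAV-GFP mice, 55.1, 51.5 and 40.9 in mice labelled obese, and 45.5, 87.0 and 49.5 in mice labelled nonobese. In each of the control and nonobese groups a single mouse stood well above the others, replicate 3 and replicate 2, and the mice labelled obese lay below both of these, between 40.9 and 55.1. Thrb had a log2 FC of −0.25 (SE 0.31, 95% interval −0.88 to 0.38) in mice labelled obese and −0.00 (SE 0.31, 95% interval −0.63 to 0.63) in mice labelled nonobese. The ratio of Thrb to Thra did not differ detectably between any groups (exact permutation tests, 2-sided, lowest p = 0.8, with a mean log2 difference of −0.07 between mice labelled obese and AAV-GFP). Thrb (ENSMUSG00000021779) lies on chromosome 14 from 17660261 to 18038090, plus strand, and its entry sums the transcripts from both start sites shown above.

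When the 6 AAV-Cre mice were pooled, 0 of 6 receptor genes were free of overlap with controls (background 2.01%), and the same count held for mice labelled nonobese against AAV-GFP (9.72%) and for mice labelled nonobese against mice labelled obese (13.3%). Over the pooled AAV-Cre mice Pgr had a log2 FC of −0.56 (SE 0.35, 95% interval −1.29 to 0.17, p = 0.214 in a 2-sided exact permutation test, n = 6 against 3, which cannot go below 0.0119). The other log2 FCs were −0.35 for Nr3c2 (SE 0.35), −0.13 for Thrb (SE 0.27), −0.09 for Thra (SE 0.16), 0.15 for Esr1 (SE 0.35) and 0.17 for Nr3c1 (SE 0.21). Between the subsets, directly compared, Nr3c2 was higher in mice labelled nonobese by 0.65 (SE 0.38, limma unadjusted p = 0.0964, FDR = 0.523) and Pgr by 0.62 (SE 0.39, limma unadjusted p = 0.119, FDR = 0.560), neither of which passed the test. The remaining intervals of this comparison were −0.79 to 0.16 for Nr3c1, −0.66 to 1.01 for Esr1, −0.18 to 0.56 for Thra and −0.38 to 0.88 for Thrb. The median log2 FC of the 6 receptors was −0.22 in mice labelled obese against AAV-GFP, 0.00 in mice labelled nonobese, −0.11 over all AAV-Cre mice and 0.22 between the subsets, where the medians of all entries tested were −0.04, −0.02, −0.03 and 0.02.

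The immune markers named above moved with the comparison of mice labelled obese, and their part in the receptor values was not tested. In the same groups the summed signal of 5 astrocyte markers was 832 to 1646 in mice labelled obese against 637 to 739 in AAV-GFP mice, that of 5 oligodendrocyte markers 764 to 983 against 1097 to 1668, and that of 5 neuronal markers 1487 to 2065 against 1834 to 1943. Without replicates 1 and 3 labelled obese, an alternative added after the data were seen that leaves a single mouse of the subset, assumed to vary like the other groups, the count of receptor genes called was again 0 in each of the 3 comparisons that include mice labelled obese. Pgr then had a log2 FC of −0.45 against AAV-GFP (limma unadjusted p = 0.336), Nr3c2 of −0.81 (limma unadjusted p = 0.101) and Nr3c1 of 0.72 (limma unadjusted p = 0.0197, FDR = 0.373). Esr1 then had 0.56 (limma unadjusted p = 0.269), Thra 0.09 and Thrb −0.17. Without replicate 1 labelled obese alone, Pgr moved to −0.53 (limma unadjusted p = 0.179), and without AAV-GFP replicate 2 to −0.67 (limma unadjusted p = 0.159).

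Receptor genes were next compared with each other over the 9 mice. Of 15 pairs, 0 passed an adjusted p of 0.1 in an exact permutation test of the pairings. By r over all mice, the largest value was that of the corticosteroid receptors, where Nr3c2 was lower in mice with more Nr3c1 (Pearson's r −0.743, exact permutation p = 0.0187, adjusted p = 0.171, and Spearman's rho −0.667, exact permutation p = 0.0589, adjusted p = 0.570, n = 9). Without the 2 mice farthest from the median of Nr3c1, r was −0.847, and after subtracting group means it was −0.595. With libraries centred on their medians r was −0.561, smaller in size than the 0.763 of Pgr and Thra. Pgr and Thra were related in the positive direction (r 0.711, exact permutation p = 0.0228, adjusted p = 0.171, rho 0.633, exact permutation p = 0.0760, adjusted p = 0.570, n = 9), with r 0.690 after subtracting group means but 0.492 without the 2 mice farthest from the median of Pgr. After subtracting group means, other pairs had larger values, with r −0.845 for Pgr and Nr3c2 and 0.830 for Pgr and Nr3c1, which were 0.078 and 0.128 over all mice, and −0.769 for Nr3c2 and Thra. For Esr1 and Pgr no relation was detectable (r −0.055, exact permutation p = 0.890, n = 9), a value that turned to 0.052 when libraries were centred on their medians.

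**Figure D4:**
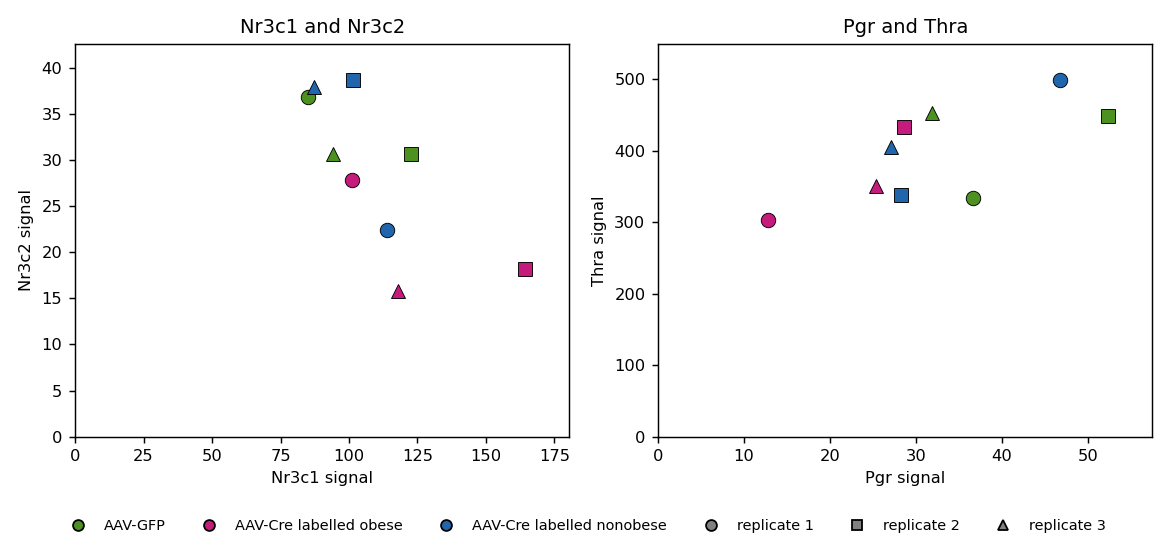
Signal of Nr3c2 against Nr3c1 and of Thra against Pgr in the 9 mice, coloured by group, with the shape giving the replicate number. Replicates 2 and 3 labelled obese combine Nr3c2 of 18.2 and 15.8 with Nr3c1 of 164 and 118, and replicate 1 labelled obese has the lowest Pgr (12.8) and the lowest Thra (304).

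As a description with no test, the entries whose log2(signal + 1) was most like that of each receptor over the 9 libraries were taken among the 8398 entries that reached a signal of 5 in all libraries. They were St6galnac6 for Pgr (r 0.961), Gm24494 for Esr1 (r 0.925), Il1rap for Nr3c1 (r 0.942), Ccnt2 for Nr3c2 (r 0.947), Sept8 for Thra (r 0.954) and Gmps for Thrb (r 0.979). The next ones were Mob1b and Fam49a for Pgr, Mblac2 and Fam133b for Esr1, Rbbp9 and Mut for Nr3c1, Cox6b1 and Cfap97 for Nr3c2, Tmem229a and Mios for Thra, and Nlgn3 and Gtf2e2 for Thrb. None of these 18 entries was itself a receptor gene of the set, and with so many candidates and 9 libraries that share depth and scaling, r is given as a measure of likeness only.

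Partners of these receptors were read from lists chosen with earlier results known. Of 7 related receptors in the table (9 chosen, Esr2 and Esrrb having no entry), 0 passed an FDR of 0.1 in any comparison. Rxrg, a retinoid X receptor, had the lowest p of this list between the subsets (log2 FC 1.06, SE 0.51, limma unadjusted p = 0.0504, FDR = 0.440).

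Nr1d1, the circadian repressor REV-ERB alpha that overlaps Thra, was lower in all 6 AAV-Cre mice than in all controls. Of all entries tested, 2.01% did not overlap in this comparison and 1.08% were lower without overlap. It had 47.9, 48.6 and 43.1 in AAV-GFP mice, 34.6, 36.8 and 18.4 in mice labelled obese, and 29.0, 30.4 and 33.3 in mice labelled nonobese. The log2 FC over all AAV-Cre mice was −0.63 (SE 0.29, limma unadjusted p = 0.0434, FDR = 0.999), while that of Thra was −0.09. Nr1d2, which lies near Thrb, had a log2 FC of 0.31 between the subsets (limma unadjusted p = 0.292).

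Coactivators and corepressors passed the test in 0 of 12 cases in each comparison. Ncoa3, a coactivator of steroid receptors, had a signal of 46.9, 59.0 and 54.2 in AAV-GFP mice, 77.2, 91.0 and 117 in mice labelled obese, and 24.5, 76.7 and 54.2 in mice labelled nonobese. Mice labelled obese exceeded all others, where 14.5% of entries did not overlap against AAV-GFP and 13.3% between the subsets. Ncoa3 had a log2 FC of 0.81 against AAV-GFP (SE 0.32, limma unadjusted p = 0.0190, FDR = 0.380). From obese to nonobese the log2 FC was −0.99 (SE 0.32, limma unadjusted p = 0.00525, FDR = 0.207). Tbl1x, a corepressor subunit, had the lowest p in mice labelled nonobese (log2 FC −0.48, limma unadjusted p = 0.0905) and over all AAV-Cre mice (−0.35, limma unadjusted p = 0.169). Among 7 chaperones of unliganded steroid receptors, 0 passed in any comparison, and the lowest unadjusted p was that of Ptges3, the cochaperone p23, between the subsets (log2 FC −0.65, limma unadjusted p = 0.0285, FDR = 0.368). Hsp90ab1 (log2 FC 0.25 in mice labelled obese and 0.16 over all AAV-Cre mice) and Fkbp4 (0.31 in mice labelled nonobese) had the lowest p in the others.

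Genes known to be induced by glucocorticoids passed the test in 0 of 14 cases in each comparison, with a median log2 FC of −0.22 in mice labelled obese, −0.14 in mice labelled nonobese and −0.28 over all AAV-Cre mice. The gene of this list with the lowest p was Klf9, a transcription factor that responds to glucocorticoids and to thyroid hormone. Klf9 had a signal of 42.4, 41.9 and 38.5 in AAV-GFP mice, 26.1, 32.5 and 15.3 in mice labelled obese, and 21.7, 20.4 and 26.5 in mice labelled nonobese. All 6 AAV-Cre mice lay below all 3 controls, which differed little among themselves. Klf9 had a log2 FC of −0.77 in mice labelled obese, −0.82 in mice labelled nonobese (SE 0.37 for each) and −0.80 over all AAV-Cre mice (SE 0.32, limma unadjusted p = 0.0207, FDR = 0.999), where the exact permutation test gave p = 0.0238 (2-sided, n = 6 against 3). Without both immune-rich libraries the log2 FC of Klf9 in mice labelled obese was −0.32. Over all AAV-Cre mice, 2.01% of entries did not overlap with controls and 1.08% were lower without overlap. Tsc22d3 had the lowest p between the subsets (log2 FC 0.48, limma unadjusted p = 0.244). Sgk1, whose promoter is shown above, had a signal of 14.5, 14.9 and 12.8 in AAV-GFP mice, 4.95, 7.26 and 40.7 in mice labelled obese, and 16.1, 0.262 and 13.0 in mice labelled nonobese, so that AAV-Cre mice scattered on both sides of closely spaced controls.

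**Figure D5:**
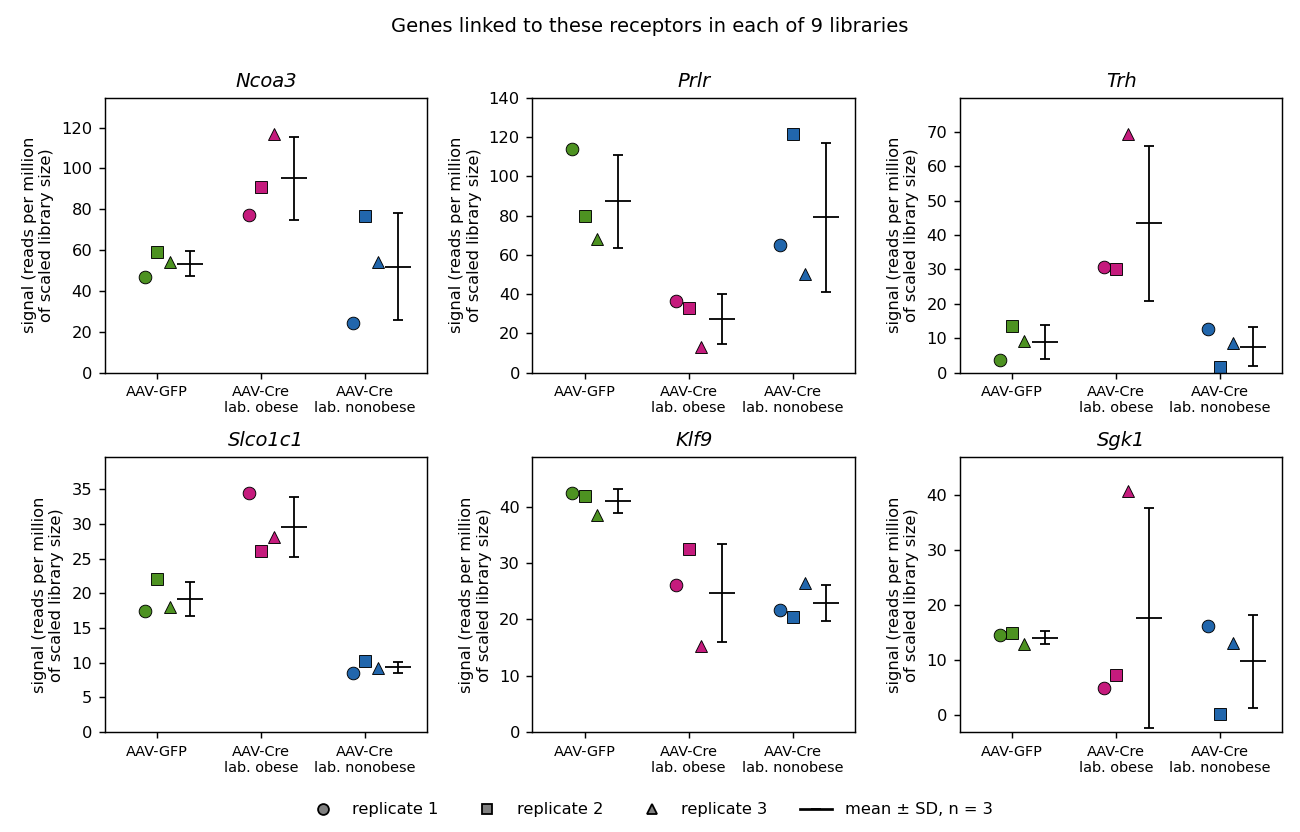
Signal of 6 genes linked to the receptors in each of the 9 libraries (points, shape by replicate number, which was not used to pair mice in the main tests), with mean ± SD of 3 mice beside each group. Klf9 is lower in all AAV-Cre mice than in controls, Ncoa3 is highest in mice labelled obese, Prlr is lowest and Trh highest in the same mice, and the 3 groups of Slco1c1 do not overlap.

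Among 7 genes known to respond to thyroid hormone, 1 passed the test, Trh between the subsets (background 0.948% of all entries). Trh encodes thyrotropin-releasing hormone and is repressed by thyroid hormone through Thrb in the paraventricular nucleus. Its signal was 3.74, 13.6 and 9.13 in AAV-GFP mice, 30.6, 30.2 and 69.5 in mice labelled obese, and 12.6, 1.57 and 8.54 in mice labelled nonobese. All 3 mice labelled obese lay above all others (14.5% of entries did not overlap against AAV-GFP and 13.3% between the subsets). From obese to nonobese Trh fell by 2.57 on the log2 scale (SE 0.64, limma FDR = 0.0699, exact permutation p = 0.1), and mice labelled obese had a log2 FC of 2.21 against AAV-GFP (SE 0.64, limma FDR = 0.178). The latter passed with replicate 2 labelled obese (limma FDR = 0.0529) or replicate 2 labelled nonobese (limma FDR = 0.0701) left out, and with DESeq2 (FDR = 0.0353). The difference between the subsets lost the call with replicate 1 or 3 labelled obese left out (FDR 0.226 and 0.314), with replicate 2 or 3 labelled nonobese left out (FDR 0.280 and 0.129), and without both immune-rich libraries (log2 FC −2.17, limma FDR = 0.404). Trh is also a marker of neurons of other nuclei, of which 5 of 9 chosen had an entry. With Trh included, their summed signal was 148 to 459 in mice labelled obese, 83.4 to 778 in mice labelled nonobese and 53.8 to 257 in controls, the highest being mostly Pmch, with 744 in replicate 1 labelled nonobese. At an unadjusted p under 0.05, 2 of the 5 were higher in mice labelled obese than in AAV-GFP mice (background 9.88%, either direction). From obese to nonobese 2 of 5 were lower (background 11.4%), Trh and Ppp1r17 in both comparisons. Of the 5, 1 was higher in mice labelled nonobese than in AAV-GFP mice (background 2.27%) and 1 over all AAV-Cre mice (3.14%). Ppp1r17, a marker of the dorsomedial nucleus, had a signal of 26.9, 13.8 and 5.83 in AAV-GFP mice, 28.6, 24.7 and 69.5 in mice labelled obese, and 19.2, 12.3 and 4.91 in mice labelled nonobese. The part of these other nuclei in the Trh values was not tested.

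Of 6 genes for uptake and conversion of thyroid hormone (9 chosen, Dio3, Crym and Ttr having no entry), 0 passed in any comparison. Slco1c1, a thyroxine transporter of astrocytes and brain endothelium, had a signal of 17.5, 22.0 and 18.1 in AAV-GFP mice, 34.4, 26.1 and 28.1 in mice labelled obese, and 8.57, 10.2 and 9.18 in mice labelled nonobese. The groups did not overlap, with mice labelled obese highest and mice labelled nonobese lowest. The shares of all entries that did not overlap were 14.5% (obese against AAV-GFP), 9.72% (nonobese against AAV-GFP) and 13.3% (between the subsets). Slco1c1 had a log2 FC of −1.56 between the subsets (SE 0.44, limma unadjusted p = 0.00170, FDR = 0.126) and −0.96 in mice labelled nonobese against AAV-GFP (SE 0.44, limma unadjusted p = 0.0392, FDR = 0.999). DESeq2 on the recovered reads called the difference between the subsets (log2 FC −1.69, FDR = 0.0104), and limma did so without replicate 2 labelled obese (FDR = 0.0567). The astrocyte marker sum was 575 to 788 and that of 4 endothelial markers 57.8 to 84.0 in mice labelled nonobese, against 832 to 1646 and 95.3 to 120 in mice labelled obese, and their part in the Slco1c1 values was not tested. Dio2, the deiodinase that activates thyroxine, had 1 to 73 reads per library and the lowest p over all AAV-Cre mice (log2 FC −0.66, SE 0.82, limma unadjusted p = 0.431).

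Of 5 enzymes of steroid conversion (11 chosen, 6 without an entry), 0 passed. Srd5a1, steroid 5-alpha-reductase, had 1, 7 and 1 reads in AAV-GFP mice, 23, 0 and 59 in mice labelled obese, and 45, 24 and 17 in mice labelled nonobese (log2 FC 2.14 in the latter, limma unadjusted p = 0.0345, FDR = 0.999). Hsd11b1, which regenerates corticosterone, had the lowest p between the subsets (log2 FC 2.08, limma unadjusted p = 0.0281, FDR = 0.368), with 0, 0 and 21 reads in mice labelled obese.

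Among 5 hypothalamic genes known to be regulated by oestrogen (6 chosen, Kiss1 having no entry), 1 passed, the prolactin receptor gene Prlr. Prlr passed in mice labelled obese against AAV-GFP (background 0.555% of all entries) and between the subsets (0.948%). Its signal was 114, 79.7 and 68.2 in AAV-GFP mice, 36.4, 33.1 and 12.8 in mice labelled obese, and 65.1, 122 and 50.1 in mice labelled nonobese. Mice labelled obese lay below all other mice (14.5% of entries did not overlap against AAV-GFP and 13.3% between the subsets). In mice labelled obese Prlr fell by 1.73 on the log2 scale (SE 0.36, limma FDR = 0.0332), and from obese to nonobese it rose by 1.52 (SE 0.36, limma FDR = 0.0569). For both comparisons the exact permutation p was 0.1, the smallest for 3 mice against 3. The call against AAV-GFP was lost when AAV-GFP replicate 1 (FDR 0.294) or replicate 3 labelled obese (FDR 0.205) was left out. It was also lost without replicates 1 and 3 labelled obese, where the log2 FC was −1.34 and the FDR 0.202. Between the subsets the call was lost without replicate 1 or 3 labelled obese (FDR 0.146 and 0.268) or replicate 1 or 2 labelled nonobese (FDR 0.132 and 0.315), and without both immune-rich libraries (FDR 0.293). Oxtr, the oxytocin receptor gene, had the lowest p of the list in mice labelled nonobese (log2 FC 0.71, SE 0.55, limma unadjusted p = 0.206).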

How the data were processed

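RNA of laser-captured mediobasal hypothalamus was sequenced by the authors from 9 mice, each as its own library made from amplified RNA with a stranded kit. Per the submitters' processing notes, CASAVA 1.7, TopHat2 2.0.11 on GRCm38, HTSeq, edgeR and limma were used. Signal, the unit of the deposited table, was computed by the authors from the reads of each gene and a TMM-scaled library size, on the scale of CPM. Sums ran from 954378 to 1046542 per library, so they are not plain CPM. Divided by the signal that 1 read gives, 100% of values in each library came out whole (tolerance 0.05 reads), with 3929672 to 5766994 reads per library, on which edgeR called 93 and 141 entries in the comparisons of mice labelled obese and of the subsets. No entry had fewer than 50 reads over all libraries.

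Symbols were matched for 13446 of 13586 Ensembl identifiers, and positions and lengths come from GENCODE M21. Samples were grouped by treatment and weight label. For tests, limma 3.58.1 (R 4.3.3) was run on log2(signal + 1) with a variance trend. Benjamini-Hochberg adjustment (FDR) covered 13506 entries, those that reached a signal of 1 in 3 or more libraries. A test planned for CPM was kept for signal. Mice labelled by subset entered 1 fit of 3 groups, and all AAV-Cre mice against AAV-GFP a fit of 2. Single genes and ratios were compared by exact permutation tests over all splits of the mice (Python 3.11.15, numpy 2.4.6). Ranks for Spearman's rho came from scipy 1.17.1. The members and lists were chosen with earlier results of these data known. Genes named are the 6 receptors, each list gene with an FDR under 0.1 and otherwise the list gene with the lowest p per comparison, and the 3 entries most like each receptor. Sgk1 was added for its promoter. Values of 1 gene of the list of related receptors are not reported here.

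As alternatives, the pseudocount was set to 0.1 or 5, the filter was dropped or set at 5, and the fit was run with only the groups compared, the average of both subsets, the replicate number as a block, median centring, no variance trend, or each mouse left out. Recovered reads were tested with edgeR 4.0.16 and DESeq2 1.42.0. Leaving out both immune-rich libraries, and all alternatives for Prlr, Trh, Klf9 and Slco1c1, were added after the values were seen. The fit was tested on simulated reads. Other data of the study were not used here.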

Additional observations from a re-analysis of the deposited data

Results flagged for a closer look

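The signal of Thrb in replicate 2 labelled nonobese, 86.96, stood apart from the other 5 AAV-Cre mice, which had between 40.9 and 55.1, by more than Dixon's 95% critical value for 6 samples. Of the 6 receptor genes it was the only one with such a mouse among the AAV-Cre mice, and chance alone marks about 1 in 20 groups. AAV-GFP replicate 3 had a similar value, 83.5.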

How the results depend on the processing

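The count of receptor genes called was 0 in all 4 comparisons under every alternative, with each mouse left out in turn, and with the replicate number as a block. Deviations of same-numbered mice of different groups had correlations of −0.020 to 0.090, none over 0.1. Of 18 best matches 10 were with the same number, where 6 would be even shares. The main tests did not use the numbers. In AAV-GFP, obese and nonobese order, replicate 3 had the lowest Pomc (arcuate marker) of its group, 8.16, 4.65 and 12.8. It also had the highest Sim1 (marker of other nuclei) of its group, 22.3, 7.67 and 11.1. Ppp1r17 and Pmch, markers of the same list, did not follow. In the same order Ppp1r17 was 5.83, 69.5 and 4.91 and Pmch 16.5, 306 and 58.9. Both were lowest of their group in AAV-GFP and nonobese replicate 3 and highest in obese replicate 3. Nr5a1 was at 0 in each replicate 3 and in replicate 1 labelled obese. Agrp did not follow, with 13.9 in replicate 3 labelled nonobese against 3.67 in replicate 1. Cartpt, another arcuate marker, was highest of its group in replicate 3 labelled obese (186). Whether the numbers mark the position of the regions was not tested. With the replicate block the log2 FC of Pgr in mice labelled obese was −0.87 (unadjusted p = 0.0331). The block gave Trh in mice labelled obese an FDR of 0.0891. Log2 FCs whose sign turned were no larger in size than the −0.25 (SE 0.31) of Thrb in mice labelled obese. The cause was not tested. In mice labelled obese, Esr1 turned to −0.0050 with centring. In mice labelled nonobese, Nr3c2 was 0.013 with edgeR and 0.013 with DESeq2, and Thrb 0.0071 and 0.0095. Without both immune-rich libraries Thra was 0.089 in mice labelled obese, 0.026 over all AAV-Cre mice and −0.083 between the subsets. Esr1 was then −0.322 between the subsets, against 0.18 in the main fit. Centring turned Pearson's r to 0.052 for Esr1 and Pgr, 0.110 for Esr1 and Thra, 0.017 for Pgr and Thrb, and 0.132 for Thra and Thrb.

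With a mouse left out, log2 FCs in mice labelled obese ranged from −0.226 to 0.445 (Esr1), −1.08 to −0.53 (Pgr), 0.134 to 0.481 (Nr3c1), −0.327 to −0.064 (Thra), −0.906 to −0.515 (Nr3c2) and −0.409 to 0.0082 (Thrb). In mice labelled nonobese they ranged from −0.050 to 0.397 (Esr1), −0.097 to 0.164 (Nr3c1), −0.155 to 0.228 (Nr3c2), −0.138 to 0.142 (Thra) and −0.288 to 0.256 (Thrb). Over all AAV-Cre mice they ranged from −0.138 to 0.320 (Esr1) and −0.286 to 0.132 (Thrb), and between the subsets from −0.208 to 0.425 (Esr1) and −0.039 to 0.421 (Thrb). Of 279 such log2 FCs, of receptors and 4 linked genes, 20 turned a sign.

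The p of Pgr in mice labelled obese lay between 0.0131 and 0.179 with a mouse left out and was 0.0436 with edgeR and 0.0473 with DESeq2. Over all entries, limma called 75 in mice labelled obese, 5 without a variance trend, 34 and 143 with pseudocounts of 0.1 and 5, 200 with the block and 275 with DESeq2, and between the subsets 128, 15, 70, 214, 271 and 389. These counts were 9 and 2 without replicate 1 labelled obese and 12 and 3 without replicate 3, the count in mice labelled obese was 8, 41 and 22 without AAV-GFP replicates 1, 2 and 3, that between the subsets was 906 without replicate 2 labelled obese and from 55 to 79 without a mouse labelled nonobese, and without both immune-rich libraries they were 44 and 72. For all AAV-Cre mice limma called 3 and DESeq2 9. Between the subsets, Prlr and Trh lost their calls with no variance trend (FDR 0.348 and 0.259), edgeR (0.107 and 0.118), a pseudocount of 0.1 (0.111 and 0.145) and only the groups compared (0.177 and 0.115), and in mice labelled obese Prlr lost it with no trend (0.416). Counting error was highest for Nr3c2, Esr1 and Pgr, with as few as 68, 69 and 57 reads.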
